A study of Mus musculus with 4 samples.

Results

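The snoRNA host genes are noncoding genes whose introns carry small nucleolar RNAs, and 9 of them were chosen by symbol (Gas5, Snhg1, Snhg3, Snhg5, Snhg6, Snhg7, Snhg8, Snhg11 and Snhg12). Of these 9, 7 had a probe on the array, 1 probe each, against 19717 gene symbols on the whole array. Snhg6 and Snhg7 had no probe under their symbols or gene IDs, among probes with 1 gene symbol, and have no value of their own here. MA-10 cells, a line from a mouse Leydig cell tumor, were grown in serum-containing medium and treated with 100 μmol/L cordycepin for 3 hours or with vehicle for 3 hours. The vehicle is named as PBS in the sample descriptions and as DMSO in the study's methods. Total RNA was measured on Mouse OneArray version 2.0, with 2 control arrays (H001 and H002) and 2 cordycepin arrays (H003 and H004). Nothing says that the arrays of a group came from separate cultures, and the spread behind every p-value is that between arrays, possibly of a technical kind only.

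When a host RNA is spliced, its introns are cut out, opened and trimmed from both ends, and the snoRNA inside is protected by the proteins bound to it. Box C/D snoRNAs then guide methylation of ribosomal RNA, and box H/ACA snoRNAs guide its pseudouridylation. The spliced exons of Gas5 and related hosts code for no long protein, and in mammalian cells they are short-lived because ribosomes that start on them send them to nonsense-mediated decay. Many of these hosts start with a run of pyrimidines, as do ribosomal protein genes. Cordycepin is 3′-deoxyadenosine, an adenosine analog without the hydroxyl group that the next nucleotide joins, and it stops the growth of RNA chains, poly(A) tails above all. The labelling text names oligo-dT priming, which copies RNA through its poly(A) tail, so less of an RNA and less of its tail cannot be told apart here. In RNA from a whole culture, a fall in all cells and a larger fall in part of them cannot be told apart either.

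The stretch around the annotated start is shown for the members called lower and for 2 expressed members that were not called, since these sequences carry the features that the family is known for. Each window is 60 bases of RefSeq sequence (GRCm38.p6), from 40 bases before the start to 19 after it, written along the gene. Capitals mark the letters TATAAA on the gene's strand and the unbroken run of C and T that begins at the start.
Snhg8: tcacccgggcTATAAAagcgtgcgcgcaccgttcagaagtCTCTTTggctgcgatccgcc
Snhg5: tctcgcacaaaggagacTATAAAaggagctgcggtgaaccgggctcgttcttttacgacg
Snhg12: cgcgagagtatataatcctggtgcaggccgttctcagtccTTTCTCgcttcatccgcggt
Snhg1: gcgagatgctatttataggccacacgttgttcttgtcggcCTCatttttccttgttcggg
Gas5: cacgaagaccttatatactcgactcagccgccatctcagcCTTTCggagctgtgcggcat
The windows lie at chr3:123508317-123508376 (minus strand), chr9:88522878-88522937 (minus), chr4:132308638-132308697 (plus), chr19:8723447-8723506 (plus) and chr1:161035126-161035185 (plus). For Gas5 the second of 2 annotated starts is shown, and its first start opened on no C or T.

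TATAAA began 30 bases before the annotated start in Snhg8 and Snhg7 and 23 bases before it in Snhg5. In Snhg3 it lay 22 bases after the start, and in Snhg1 it lay only on the opposite strand. On either strand, TATAAA was found in 5 of the 9 start windows that RefSeq gives for 8 members, 300 bases each, against 13.6% of all 32851 windows of that table. A run of 5 or more C or T began at the start in 4 of the 9 windows (Gas5, Snhg7, Snhg8 and Snhg12), against 4.44% of all windows. The letters GGGCGG were in 5 windows of the members (35.7% of all windows), CCAAT in 3 (37.4%), TGACGTCA in 1, that of the second Gas5 start (1.79%), and CACGTG in 0 (7.15%), each searched on both strands. These are matches of letters, and called members stood on both sides. Snhg8 and Snhg12 had the long C or T run at the annotated start, and Snhg5 had none there. Gas5 had the run at its second start without being called. Runs were counted only from the annotated base, so they depend on where that start is placed. The Snhg5 window printed above also holds an unbroken stretch of C and T a few bases after its start, which was not counted.

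After 3 hours of cordycepin, 3 of the 6 host genes that could be tested were lower and 0 were higher. Snhg8 fell from a clear signal to one that was not detected, Snhg5 fell 3.14-fold and Snhg12 fell 2.34-fold. Snhg1 and Gas5 had lower values on both cordycepin arrays but were not called, and Snhg11 was not detected at all. The test was limma on the log2 of the deposited normalized intensity, and a probe was called at a Benjamini-Hochberg adjusted p under 0.05 over 24319 probes. On that scale 13% of all probes were called lower and 1.19% higher, and the median log2 ratio was -1.10 over the 6 members against -0.10 over all probes. A probe counted as detected on an array where its deposited detection p was under 0.05. All probes shared a standard error of 0.41, so that the smallest log2 ratio called was 1.10 in size.

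Snhg8, the short host of the box H/ACA snoRNA Snora24 (chromosome 3, 785 bases), had normalized intensities of 184 and 123 on the control arrays H001 and H002, and of 2.22 and 3.64 on the cordycepin arrays H003 and H004. Both controls were detected, neither cordycepin array was, and the groups did not overlap. The means were 154 ± 43.1 and 2.93 ± 0.9999 (SD, n = 2 each). Set against the dimmest detected probes of the cordycepin arrays, 24.4 on H003 and 20.9 on H004, Snhg8 was at least 6.67-fold lower. Its fitted log2 ratio of -5.73 (limma adjusted p = 3.3e-41) stands on cordycepin values below detection. The limma adjusted p of that ratio was 0.0016 under centred arrays and 0.0068 under quantile normalization. It was called lower when any 1 of the 4 arrays was left out.

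Snhg5, which holds 2 snoRNA genes on chromosome 9 and whose human gene was found at a translocation breakpoint in lymphoma, had intensities of 4735 and 3272 in the controls and of 1248 and 1260 after cordycepin. The cordycepin arrays were nearly equal, both lay far below the lower control, and all 4 arrays detected the probe. The means were 4003 ± 1034 and 1254 ± 8.64 (SD, n = 2 each). The log2 ratio was -1.65 (95% interval -2.45 to -0.85, limma adjusted p = 6.4e-04). Without H003 the log2 ratio was -1.64 with a limma adjusted p of 0.096, and without H004 it was -1.66 with a limma adjusted p of 0.085. The direction was kept without either cordycepin array, and the call was made only with both.

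Snhg12, which carries 4 snoRNA genes on chromosome 4, had intensities of 1362 and 1016 in the controls and of 529 and 478 after cordycepin. The groups did not overlap, and the probe was detected on all 4 arrays. The means were 1189 ± 244 and 504 ± 35.9 (SD, n = 2 each), and the log2 ratio was -1.23 (95% interval -2.02 to -0.43, limma adjusted p = 0.021). Without H003 or H004 the limma adjusted p was 0.30 and 0.41, at log2 ratios of -1.30 and -1.15, and the call was lost.

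Snhg1, whose gene on chromosome 19 holds 8 snoRNA genes, had intensities of 942 and 507 in the controls and of 373 and 332 after cordycepin. The cordycepin arrays lay below both controls, but the controls themselves differed by 1.86-fold, the widest gap between them among the 5 tested members that were detected. The means were 725 ± 308 and 353 ± 29.4 (SD, n = 2 each), and the log2 ratio of -0.97 (95% interval -1.77 to -0.18) was not called (limma adjusted p = 0.098). It was called without control H002, at a log2 ratio of -1.42 (limma adjusted p = 0.011), and not without H001, at -0.53 (limma adjusted p = 0.11).

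Gas5, the growth arrest-specific host with 8 snoRNA genes on chromosome 1, had intensities of 14736 and 10940 in the controls and of 9968 and 9465 after cordycepin. The cordycepin values were the lower ones, with a gap to H002 that was smaller than the gap between the controls. The means were 12838 ± 2684 and 9717 ± 355 (SD, n = 2 each). The log2 ratio was -0.39 (95% interval -1.18 to 0.41, limma adjusted p = 0.79), an interval that holds both no change and a fall as large as that of Snhg1.

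Snhg3, the host of the paired box H/ACA snoRNAs Snora73a and Snora73b, had intensities of 7204, 0, 4920 and 5396 on H001, H002, H003 and H004. The 0 on H002 was a spot that the deposited table flags and does not detect, while the other 3 arrays detected the probe clearly. It was therefore left out of the test, which needs a value above 0 on every array. Without H002 the log2 ratio was -0.48 (limma adjusted p = 0.12), from 1 control array against both cordycepin arrays. Kept in with the 0 set to 1, it gave a log2 ratio of 5.92 (limma adjusted p = 0.66), a sign that rests on that spot alone.

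Snhg11, a host of 2 snoRNA genes, had intensities of 9.16, 3.55, 14.4 and 7.27 on H001 to H004. No array detected it, the groups overlapped, and no fold is given (limma adjusted p = 0.19).

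**Figure D1:**
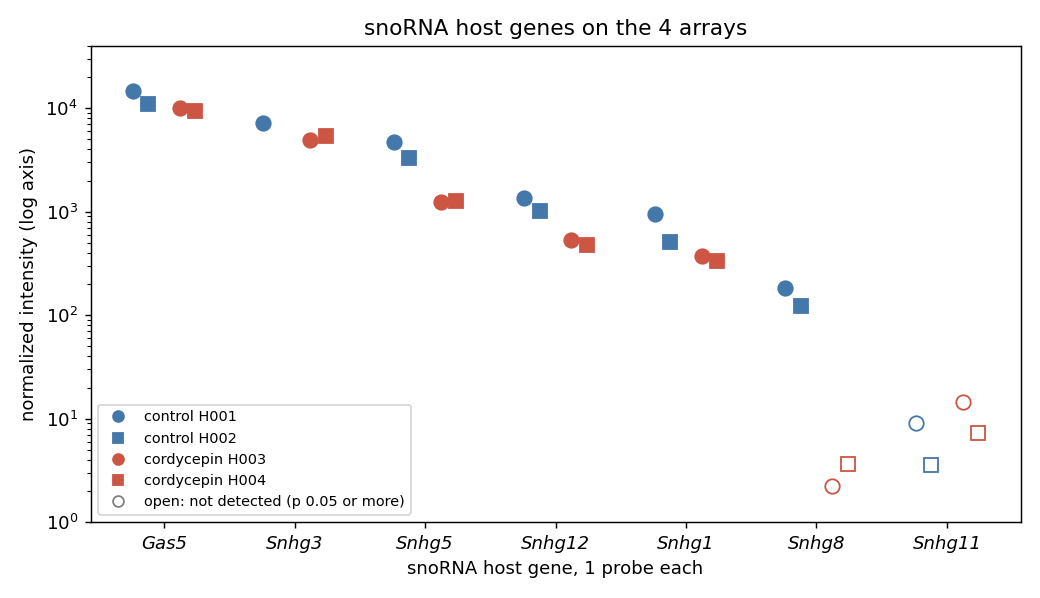
Normalized intensity (log axis) of the 7 host genes with a probe, on control arrays H001 and H002 (blue) and cordycepin arrays H003 and H004 (red); open symbols were not detected, and the value of 0 for Snhg3 on H002 is not drawn. Snhg5, Snhg12 and Snhg8 show both cordycepin arrays well below both controls, and levels of different probes are not comparable.

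The scaling of the arrays mattered for the size of these ratios. With the deposited constants, the median over probes of the log2 difference between the control arrays (H001 minus H002) was 0.50, against 0.14 before scaling. Between the cordycepin arrays (H003 minus H004) that median was 0.03, against -0.26 before scaling. With each array centred on its median, the log2 ratios were -5.39 for Snhg8, -1.31 for Snhg5 and -0.89 for Snhg12, and the same 3 members were called (17.6% of all probes lower, 20.5% higher, median log2 ratio of all probes 0.24). Gas5 then stood at -0.05 and Snhg1 at -0.64, both uncalled. With quantile-normalized raw intensities, 4 members were called lower, Gas5 being the added one at -0.44 (limma adjusted p = 0.021), where 15.5% of all probes were lower and 21.6% higher and the median of all probes was 0.13. Snhg1 had its smallest log2 ratio there, -0.28. Over 13317 probes detected on both arrays of a group, 4 members were called lower, Snhg1 being the added one (limma adjusted p = 0.016), against 27.6% of those probes lower and 1.15% higher. Among detected probes the background of lower calls was higher than the 13% over all probes, and the members' count is to be read against it. A probe enters this set through either group alone, as Snhg8 did through the controls. None of the members was called higher in any of these fits, and the 1 member higher at an unadjusted p under 0.05 under the deposited scaling was Snhg11, which no array detected. By the methods' t-test with the same adjustment, 0 members were called in either direction.

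**Figure D2:**
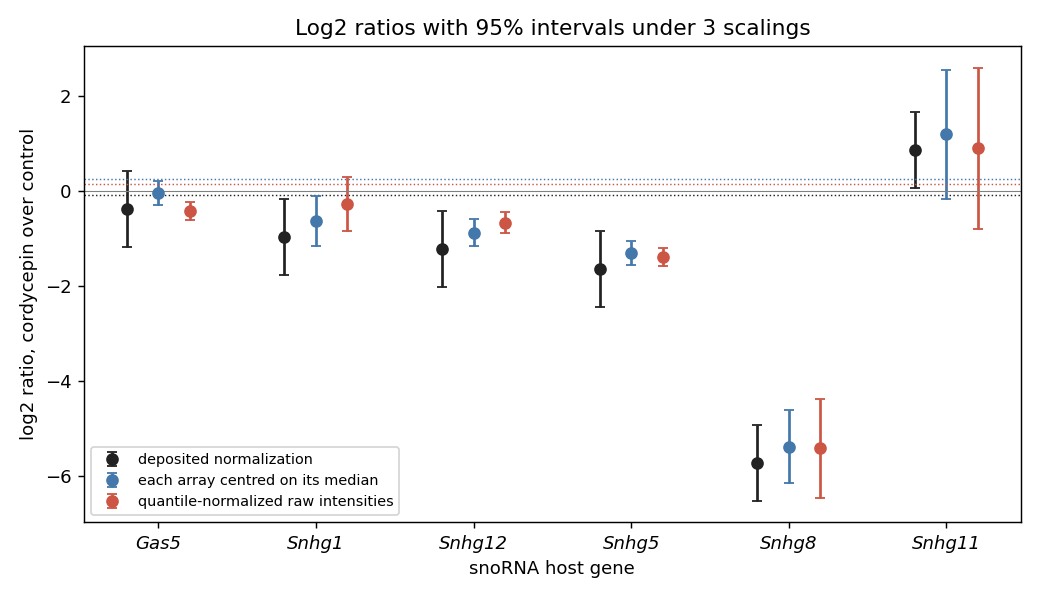
Log2 ratio of cordycepin over control with 95% intervals for the 6 tested host genes under the deposited scaling (black), centred arrays (blue) and quantile-normalized raw intensities (red); dotted lines mark the median of all probes in each. Snhg8, Snhg5 and Snhg12 stay below 0 with their whole interval in all 3, while Snhg11 was not detected on any array.

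The 9 hosts hold 30 annotated snoRNA genes, 8 each in Gas5 and Snhg1, 4 in Snhg12, 2 each in Snhg3, Snhg5, Snhg7 and Snhg11, and 1 each in Snhg6 and Snhg8. Of these 30, 6 had a probe of their own, in Snhg1, Snhg7 and Snhg12, and all 6 were called lower after cordycepin. Beside them, 13% of all probes were called lower, and 32 of the 63 tested snoRNA and scaRNA probes of the array, which include these 6. Snora16a was detected on 1 array only, and Snora17 was close to the detection limit after cordycepin. Mature snoRNAs carry no poly(A) tail, and what part of such a probe's signal came from a snoRNA and what part from host RNA was not tested.

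**Figure D3:**
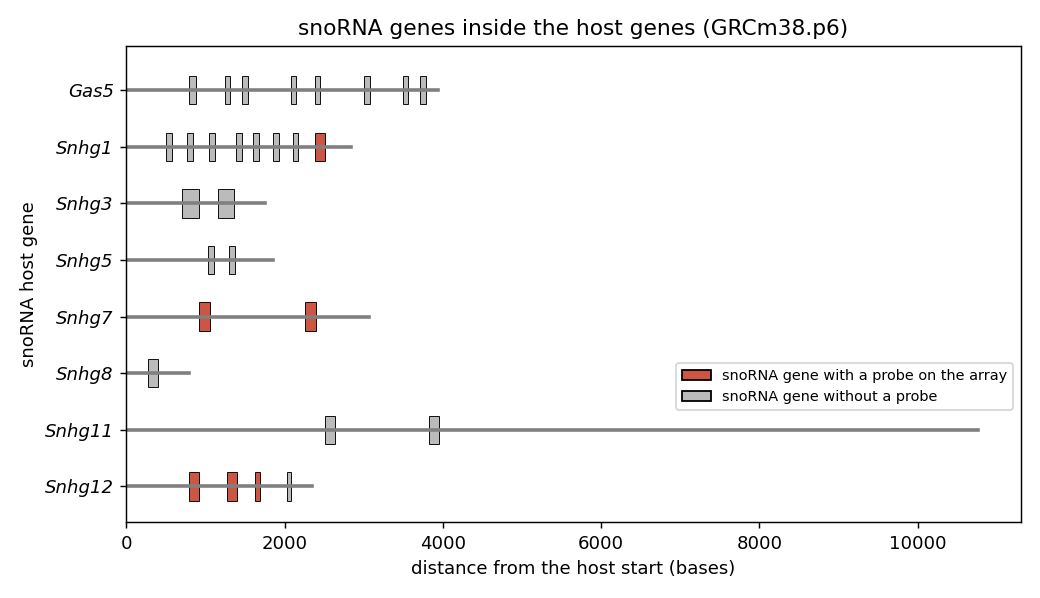
Position of the annotated snoRNA genes inside 8 host genes, in bases from the host start (Snhg6, for which no strand was given, is not drawn); red boxes have a probe on the array and grey boxes have none. Snhg12 holds 3 snoRNA genes with a probe, Snhg7 holds 2 and Snhg1 holds 1.

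Snord22, a box C/D snoRNA that in frog oocytes is needed to process small-subunit ribosomal RNA, is the last snoRNA gene of Snhg1, 2379 bases after the host start. Its intensities were 1065 and 775 in the controls and 65.6 and 65.5 after cordycepin. All 4 arrays detected it, the cordycepin arrays were almost identical, and the fall was 13.9-fold (log2 ratio -3.79, 95% interval -4.59 to -3.00, limma adjusted p = 2.3e-18). The host probe of Snhg1 stood at a log2 ratio of -0.97 on the same arrays, and the difference between the 2 probes was not tested.

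In Snhg12, the box H/ACA snoRNAs Snora44 and Snora61 were detected on both controls and on neither cordycepin array. Snora44 had intensities of 60.7, 40.8, 6.67 and 8.18 on H001 to H004 and was at least 2.20-fold lower. Its limma adjusted p of 6.0e-10 belongs to the fitted log2 ratio of -2.75, which stands on cordycepin values below detection. Snora61 had intensities of 82.4, 58.6, 4.44 and 6.36 and was at least 3.07-fold lower. Its limma adjusted p of 1.4e-17 likewise belongs to a fitted log2 ratio, -3.71. Snora16a, the first snoRNA of the gene, was detected only on H001, with intensities of 33.2, 18.6, 7.78 and 9.09, and its log2 ratio of -1.56 stands mostly on values below detection. The 3 snoRNA probes and the probe of Snhg12 itself were all called lower, and the groups did not overlap for Snora44, Snora61 and Snhg12, while for Snora16a the lower control has no order against the cordycepin arrays.

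Snhg7 has no probe, but both of its box H/ACA snoRNAs do. Snora43 had intensities of 182 and 129 in the controls and of 50 and 54.5 after cordycepin, a 2.93-fold fall (log2 ratio -1.55, 95% interval -2.35 to -0.75, limma adjusted p = 0.0016). Snora17 had 57.2 and 41.7 in the controls and 22.2 and 21.8 after cordycepin, and was not detected on H003 (log2 ratio -1.15, limma adjusted p = 0.035). Both snoRNAs had groups that did not overlap. Without H003 or without H004, 3 of the 6 nested snoRNAs were called, Snord22, Snora44 and Snora61, and the log2 ratios of Snora43 were then -1.49 and -1.61, those of Snora17 -1.16 and -1.14, and those of Snora16a -1.45 and -1.68. All 6 were called under centred arrays and under quantile normalization, 5 with unscaled raw intensities and 3 without a filter. The methods' t-test after adjustment called 0 of them and 0 of all probes. Under quantile normalization the log2 ratio of Snora43 was -0.85.

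**Figure D4:**
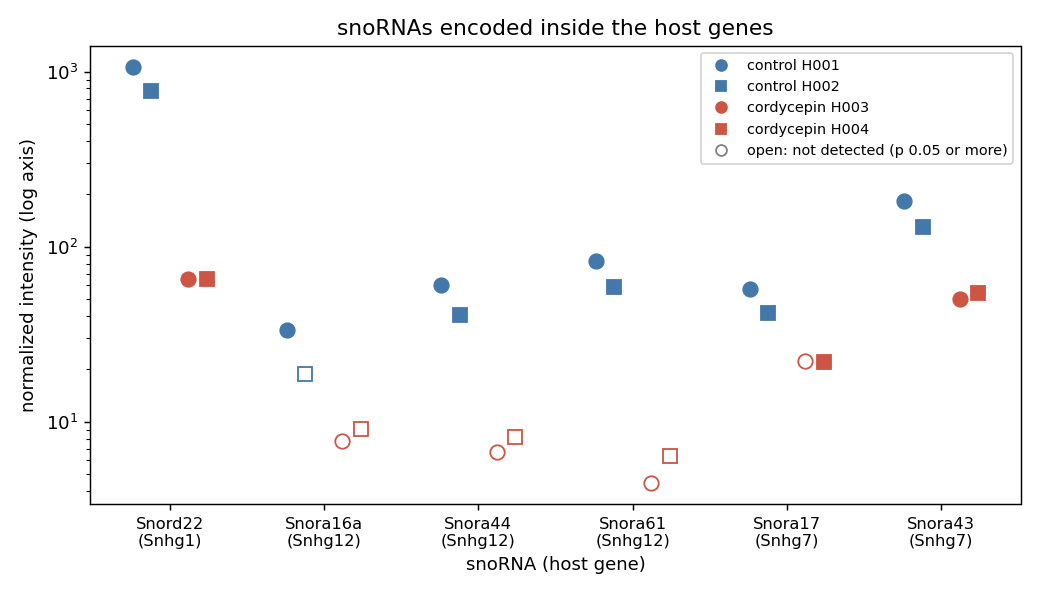
Normalized intensity (log axis) of the 6 snoRNAs inside the host genes that had a probe, on control arrays H001 and H002 (blue) and cordycepin arrays H003 and H004 (red); open symbols were not detected. Filled control points lie above the cordycepin points of the same probe, and open points have no order among themselves.

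Probes for snoRNAs outside these hosts were on the array as well. Of 63 tested probes for snoRNAs and for scaRNAs, their relatives in Cajal bodies, 32 were lower and 1 was higher, with a median log2 ratio of -1.15 against -0.10 over all probes, and of the 36 detected on both arrays of a group 25 were lower. In the fit over detected probes alone 30 of these 36 were lower, against 27.6% of all its probes. A probe enters that fit through either group alone, as Snora44 and Snora61 did through the controls. A raised share of lower calls in it is thus partly built in, and the pairs below use the same rule of detection. Among those detected on all 4 arrays the log2 ratio was -3.89 for Snord12, which lies in Zfas1, and -3.79 for Snord22 (-3.27 and -3.16 under quantile normalization). The 1 higher probe, Snord71, was detected on no array. When 1 array was left out, the median log2 ratio of the 63 ran from -1.40 (without H002) to -0.92 (without H001). There were 18 pairs of a snoRNA and the gene around it in which both had a detected probe, with 15 different hosts, Snhg1 and Snhg12 among them. In these the snoRNA was called lower in 12 and the host in 8, both in 5, and the median log2 ratio was -1.48 for the snoRNAs and -0.71 for the hosts. In 13 of the 18 pairs the snoRNA had the lower ratio of the pair. Each host is given by its brightest tested probe. Eif4a2 and Snhg12, both called lower, and Rack1, not called at a log2 ratio of 0.19, each stand in more than 1 pair. The snoRNAs paired with Rack1 were called lower, so Rack1 enters more than once among pairs with only the snoRNA lower. The counts are thus of pairs and not of separate hosts, and a dimmer Eif4a2 probe, given below, was not called. These values describe the pairs and were not tested.

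Other host transcripts without a known protein showed falls and level values side by side. Of 7 tested, 2 were lower and 0 higher, beside 13% of all probes lower and 1.19% higher. The median log2 ratio of the 7 was 0.09. Snhg16 had intensities of 500 and 377 in the controls and of 37.8 and 40 after cordycepin, an 11.2-fold fall (limma adjusted p = 1.5e-15), with a log2 ratio of -3.48 that was -2.84 under quantile normalization. Zfas1, the host of Snord12, had 6543 and 3716 against 2201 and 1775, a 2.50-fold fall (limma adjusted p = 0.011) that was not called without H001 (-0.91), H003 (-1.47) or H004 (-1.16). The log2 ratios of the other 5 lay between -0.14 and 0.21, and under centred arrays 3 of the 7 were called higher, under quantile normalization 4.

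Protein-coding snoRNA hosts, among them ribosomal protein and translation factor genes, had 5 lower and 0 higher of 54 tested probes (9.26% lower, median log2 ratio -0.13). That share lay below the 13% of all probes called lower. Eif4a2, an RNA helicase of translation initiation, had 2 probes that differed. Its brighter probe went from 1729 and 1049 to 50 and 47.3 (log2 ratio -4.79, limma adjusted p = 5.8e-29), while its other probe read 26.3, 17.8, 22.2 and 23.6 on H001 to H004, was detected on 1 array of each group and was not called (0.08). Ppan, a ribosome assembly factor, had a log2 ratio of -2.60. Rbmx, an RNA-binding protein of splicing, also had 2 probes that differed. Its dimmer one was lower at -1.76, but at -0.98 under quantile normalization, and it was not called without H004 (-1.69). The brighter Rbmx probe had intensities of 1152 and 775 in the controls and of 846 and 665 after cordycepin, with overlapping groups, and was not called (-0.33, limma adjusted p = 0.86). When 1 array was left out, the median log2 ratio of the list ran from -0.37 (without H002) to 0.13 (without H001). Under centred arrays the probes of this list were 8 lower and 18 higher, and under quantile normalization 9 lower and 20 higher, so that its balance of directions depended on the scaling.

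Probes for the proteins that bind snoRNAs are to be read against the 13% of all probes called lower. For box C/D particles, 0 of 10 probes were lower and 0 higher by limma (median log2 ratio -0.26), with 1 lower at an unadjusted p under 0.05. Under centred arrays 1 was lower and 1 higher. The methods' t-test after adjustment called 0 of them and 0 of all probes. For box H/ACA particles, 1 of 7 was lower, Shq1, an assembly factor of the pseudouridine synthase dyskerin, from 503 and 368 to 188 and 181 (log2 ratio -1.22, limma adjusted p = 0.022). Shq1 was not called without H003 (-1.25), without H004 (-1.19) or without a filter (limma adjusted p = 0.077), and its log2 ratio was -0.41 under quantile normalization. Without H002 the median log2 ratio was -0.48 for box C/D and -0.72 for box H/ACA probes, and without H001 it was 0.02 and -0.28.

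Genes that act on the products of these hosts were also measured. Of 18 probes for nonsense-mediated decay factors, 7 were lower and 0 higher (38.9% lower against 13% of all probes, median log2 ratio -0.90). In the fit over detected probes alone, which Smg8 enters through the controls only, 9 of 17 were lower, against 27.6% of all its probes. The counts were 9 lower and 3 higher under centred arrays, and 8 and 2 under quantile normalization, where the median was -0.28. Smg8, a regulator of the kinase that phosphorylates the decay helicase Upf1, went from 223 and 162 to values not detected. It was at least 8.40-fold lower, and its limma adjusted p of 3.8e-18 belongs to the fitted log2 ratio of -3.77. Pnrc2, which links decay to decapping, and Casc3, of the exon junction complex, had log2 ratios of -2.64 and -2.39, the latter -1.80 under quantile normalization. Of 29 probes for snoRNA end trimming and nuclear decay, 13 were lower and 0 higher (44.8% lower against 13% of all probes, median log2 ratio -0.53). Among these was Dbr1, the enzyme that opens intron lariats and so frees intronic snoRNAs, from 3269 and 2447 to 418 and 388 (log2 ratio -2.81, limma adjusted p = 2.3e-10). Tent4a, a noncanonical poly(A) polymerase, and Toe1, a deadenylase that trims small RNA ends, had log2 ratios of -3.62 (-2.96 under quantile normalization) and -2.46, and a second Toe1 probe had -2.22. When 1 array was left out, the median log2 ratio of the trimming and decay list ran from -0.80 (without H002) to -0.28 (without H001). That of the nonsense-mediated decay factors ran from -1.26 (without H002) to -0.73 (without H001). Under centred arrays 13 trimming and decay probes were lower and 4 higher, and under quantile normalization 13 and 7.

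Among 23 probes of other long noncoding and small RNA genes, 3 were lower and 1 higher (median log2 ratio -0.18), a split that was 4 and 4 under centred arrays and 3 and 6 under quantile normalization. Mir17hg, the host of a microRNA cluster, was at least 6.65-fold lower and not detected after cordycepin. Its limma adjusted p of 7.3e-19 belongs to the fitted log2 ratio of -3.85. Malat1, a nuclear RNA that lacks a poly(A) tail in its mature form, had a log2 ratio of -3.41, and Norad, a cytoplasmic RNA that binds Pumilio proteins, one of -1.21, which was not called without H003 (-1.29) or H004 (-1.12), without a filter (limma adjusted p = 0.072) or under quantile normalization, where it was -0.37 (limma adjusted p = 0.063). The ratio of Malat1 was -2.73 there. When 1 array was left out, the median log2 ratio of this list ran from -0.34 (without H002) to 0.18 (without H001). Rnu11, an RNA of the minor spliceosome, rose from 50.4 and 32.0 to 349 and 362 (log2 ratio 3.15, limma adjusted p = 8.0e-13).

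**Figure D5:**
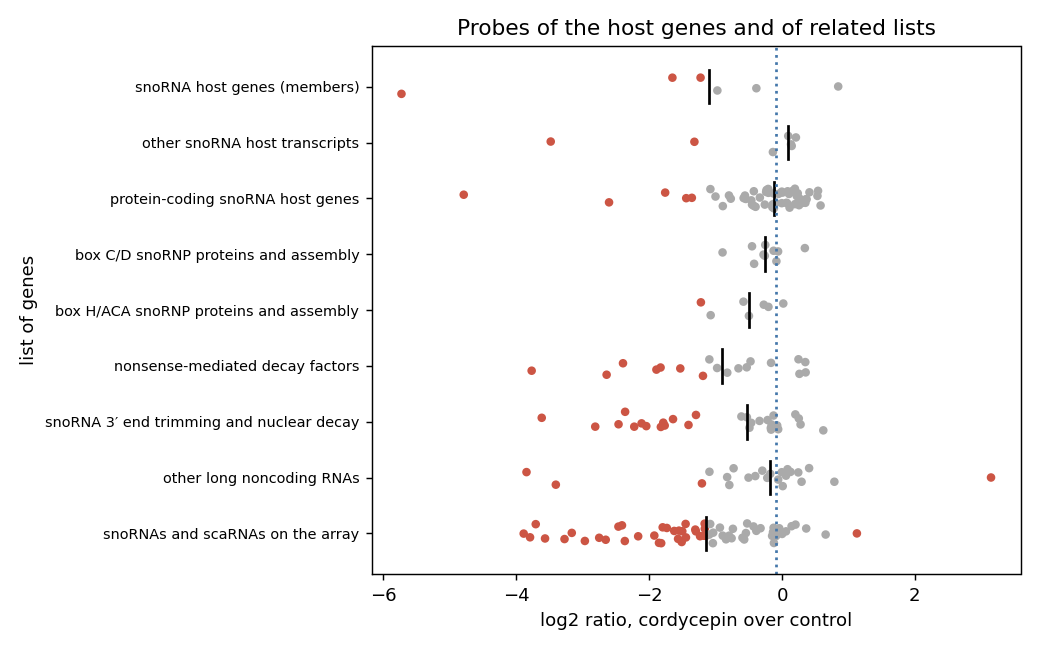
Log2 ratio of cordycepin over control for each tested probe of the host genes and of the related lists; red points were called, the black bar is the median of a list and the dotted line the median of all probes, -0.10. The snoRNA probes and the host genes have their medians at -1.15 and -1.10.

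Genes that start within 5 kb of a host were measured for Snhg1, Gas5 and Snhg7, and none was called under the deposited scaling. Slc3a2, an amino acid transporter subunit, starts 118 bases from Snhg1 in the opposite direction. Its brighter probe had intensities of 6611 and 4971 in the controls and of 4282 and 4280 after cordycepin (log2 ratio -0.42, limma adjusted p = 0.73), and its dimmer probe had a log2 ratio of -0.12. Under quantile normalization these probes were called in opposite directions. The brighter one was lower at -0.34 (limma adjusted p = 0.043) and the dimmer one higher at 0.32 (limma adjusted p = 0.020). Zbtb37, which starts 248 bases inside Gas5 on the other strand, was not detected on any array. Snhg7os, which starts 1877 bases from Snhg7 on the other strand, had intensities of 25.2, 20.4, 20.0 and 20.9 on H001 to H004 and was not called (limma adjusted p = 0.99).

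The arrays held 26423 probes, of which between 12193 and 13415 were detected on an array, and only 2 arrays a group limit the precision of every value. Of 8 Leydig cell markers 7 were on the array and 5 were detected on all 4 arrays (Hsd3b1, Nr5a1, Scarb1, Star and Cyp17a1), while Cyp11a1, the enzyme that starts steroid synthesis, was detected on none. The summed level of the 7 was 18954 to 26511 in the controls and 16431 to 17880 after cordycepin. Of 5 Sertoli markers 3 were not detected on any array, of 5 germ cell markers 4, of 4 endothelial markers 2, of 3 peritubular markers 2 and of the 4 macrophage markers on the array 1. Detected on all 4 arrays were Dhh (Sertoli), Ddx4 (germ cell), Cdh5 and Pecam1 (endothelial), Des (peritubular) and Cd68 (macrophage). The summed level went from 610 to 825 in the controls and from 519 to 551 after cordycepin for the Sertoli list, from 45.3 to 54.9 and 39.1 to 40 for germ cells, from 485 to 690 and 378 to 446 for endothelium, from 48.8 to 68.7 and 61.1 to 65.5 for peritubular cells, and from 151 to 199 and 152 to 174 for macrophages. Such sums over different probes are comparable only within a list, and the part of any of these cell types in the results was not tested.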

How the data were processed

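Total RNA of MA-10 cells was measured on 4 one-colour arrays. The authors gave raw intensities, whole numbers after a background subtraction, and normalized intensities, which are the deposited raw intensities multiplied by a constant for each array (0.888 to 1.14); the method is not given in the sources used here. The authors also deposited a detection p-value for each probe and array, and a score per spot, a flag with the value 0 or -50 whose meaning is not stated (14523 of 105692 spots at -50, of which 99.0% were not detected). The authors' own ratios, p-values and group means were not used. The labels and the methods name different vehicles, and within the labels the dose has 2 units and Cy5 stands beside a radioactive labelling text.

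The log2 of the normalized intensity was fitted in R 4.3.3 with limma 3.58.1 (lmFit, eBayes) over 24319 probes above 0 on all arrays, with Benjamini-Hochberg adjustment. The 2104 remaining probes were left out. The variance was pooled completely over probes. For a probe that a whole group failed to detect, the other group was set against the intensity of the dimmest detected probe on each array. That fold is written as "at least", and the p-value of such a probe belongs to its fitted log2 ratio and not to that fold. Simulated arrays with known changes were used to check the script.

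Of 22553 probes with 1 symbol, 22214 had a gene ID in the RefSeq table (GRCm38.p6), which updated 2280 symbols; 237 probes carried several symbols and 3633 none, and neither were named. The text names all members, up to 3 genes a direction and list with the largest log2 ratio among those called and detected on both arrays of a group, and genes starting within 5 kb of a member. Values of other listed genes are given as ranges, for a host of a named snoRNA or for a host that stands in more than 1 pair. Alternatives were 3 other scalings, 2 other filters, limma with trend, the methods' t-test and leaving out each array, and 1 was added after seeing the data, with flagged spots as missing. The members and lists were chosen with earlier results of these data known. Positions, starts and sequences came from RefSeq, processed in Python 3.11.15.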

Additional observations from a re-analysis of the deposited data

How the results depend on the processing

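The count of 3 host genes called lower became 0 by the methods' t-test, which called 0 of 24319 probes in all after Benjamini-Hochberg adjustment (3168 at an unadjusted p under 0.05), and ran from 1 to 4 when 1 array was left out. By the t-test Snhg5 (log2 ratio -1.65), Snhg8 (-5.73) and Snhg12 (-1.23) kept their direction and lost their call, and without a filter Snhg12 (-1.23, limma adjusted p = 0.075) lost its own. Snhg1 (-0.97) was called among detected probes (limma adjusted p = 0.016), by limma with trend (0.0497) and, in the alternative added after seeing the data, with flagged spots left out (0.024), and Gas5 was called at -0.44 under quantile normalization. When 1 array was left out, the log2 ratios ranged from -6.08 to -5.37 for Snhg8, from -1.92 to -1.38 for Snhg5, from -1.44 to -1.02 for Snhg12, from -1.42 to -0.53 for Snhg1 and from -0.60 to -0.17 for Gas5. Leaving out a cordycepin array raised the standard error from 0.41 to 0.62 or 0.61, with 1 array fewer and the spread taken from the control arrays alone. Leaving out a control array took the spread from the cordycepin arrays alone. Without H001 the standard error was 0.17 for Snhg12, 0.35 for Snhg8 and 0.46 for Snhg11. The count of members called higher was 0 under every alternative run, and none of the 6 members of the main test changed direction in them. All probes called lower numbered 3152 in the main comparison and 6458 without H002, 1584 without H003, 1549 without H004 and 1798 without a filter; those called higher numbered 290 and rose to 4974 under centring, 5253 under quantile normalization and 2165 without H001, and fell to 71 without a filter, 75 without H003 and 79 without H004. A value of 0 on 1 array kept Snhg3 out of the main test, and its log2 ratio was -0.48 without H002 or with flagged spots left out and 5.92 without a filter. Values below detection, those of Snhg8 after cordycepin and of Snhg11 on every array, have no order. No paired analysis was possible because the replicate names of the groups share no number.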
